A study of Mus musculus with 12 samples.

Results

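The genes described here make, tune or store the lipids of sebum, the oil that sebaceous glands release onto hair and skin. They are a fixed list of 9 genes, Mc5r, Awat2, Dgat2l6, Far2, Elovl3, Scd3, Fa2h, Soat1 and Plin2, chosen by name out of the 53465 genes counted in mouse skin. Bulk RNA sequencing covered 12 libraries in 4 groups of 3: skin of Foxp3-DE2 mice from a site given ultraviolet B light (UVB), untreated skin of Foxp3-DE2 mice, UVB skin of Foxp3-WT mice, and untreated skin of Foxp3-WT mice. Foxp3 is the master transcription factor of regulatory T cells. The altered allele is also written Foxp3-E2 and Foxp3dExon2 in the labels and is called DE2 here, while WT mice carry the unaltered gene. The UVB site, a shaved patch on the back flank, received 6 doses, given as 200 mJ/cm2 in the sample labels and 100 mJ/cm2 in the protocol. Untreated skin was a second, unirradiated site, and the sources used here do not give whether it was shaved, the age of the mice or the animal behind each library. All cells of the skin were sequenced together, so fewer cells of a type and less RNA per cell cannot be told apart in any value that follows.

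Sebocytes fill with lipid droplets, burst and release their content into the hair canal. Mouse sebum is rich in wax esters, sterol esters and triglycerides, whose fatty acids are elongated, desaturated and hydroxylated before they are joined to an alcohol, a sterol or glycerol. Mc5r, the melanocortin 5 receptor, promotes sebum output. Far2 reduces fatty acyl-CoA to fatty alcohols, Awat2 joins those alcohols to fatty acids as wax esters, and Dgat2l6 belongs to the same acyltransferase family. Elovl3 elongates fatty acids, Scd3 desaturates them and Fa2h hydroxylates them. Soat1 esterifies cholesterol, and Plin2 coats lipid droplets. Several are not private to the gland: Elovl3 is also made in hair follicles and brown fat, and Soat1 and Plin2 in many cell types.

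The promoters of Soat1 and Plin2 are shown because these members changed in the comparisons below and have a RefSeq entry. RefSeq promoters on GRCm38.p6, 250 bases before to 50 after the start, were found for 6 of the 9 members. Capitals mark 3 motifs found on either strand: the nuclear receptor half-site AGGTCA, printed as its reverse complement TGACCT where it lies on the other strand, the E-box CACGTG and the CCAAT box. The Soat1 promoter spans chr1:156474279-156474578 and the Plin2 promoter chr4:86670010-86670309, both read on the minus strand, 5′ to 3′.
Soat1: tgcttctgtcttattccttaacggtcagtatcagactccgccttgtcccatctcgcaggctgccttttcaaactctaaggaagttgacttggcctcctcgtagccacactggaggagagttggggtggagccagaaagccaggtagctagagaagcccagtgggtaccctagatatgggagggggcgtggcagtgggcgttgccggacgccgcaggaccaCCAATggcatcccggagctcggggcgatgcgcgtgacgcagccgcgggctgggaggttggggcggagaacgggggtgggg
Plin2: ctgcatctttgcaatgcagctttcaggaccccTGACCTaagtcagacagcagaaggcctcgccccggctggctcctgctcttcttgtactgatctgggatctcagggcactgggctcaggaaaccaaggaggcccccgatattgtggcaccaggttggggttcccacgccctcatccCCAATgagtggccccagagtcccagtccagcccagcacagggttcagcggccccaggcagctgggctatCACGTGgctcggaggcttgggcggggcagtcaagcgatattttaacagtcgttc
Soat1 held a CCAAT box beginning 30 bases before the start, at position -30. Plin2 held a half-site at -218, a CCAAT box at -73 and an E-box at -4. These letters are common: of 32851 mouse promoters of this length, 16.3% held AGGTCA, 7.15% held CACGTG and 37.4% held CCAAT, each counted on both strands. The motifs TATAAA, held by 13.6%, and CTTTGA, held by 16.0%, were searched as well and occur in neither sequence.

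On the GRCm38 assembly the receptor Mc5r (ENSMUSG00000007480) lies on chromosome 18 at 68337596 to 68342446, plus strand. Awat2 (ENSMUSG00000031220, chromosome X, 100402221 to 100442717, minus strand) and Dgat2l6 (ENSMUSG00000067597, chromosome X, 100524838 to 100546144, plus strand) are neighbours, 82.1 kb apart. Scd3 (ENSMUSG00000025202, chromosome 19, 44203269 to 44244016, plus strand) and Elovl3 (ENSMUSG00000038754, chromosome 19, 46131897 to 46135694, plus strand) are 1.89 Mb apart. Far2 (ENSMUSG00000030303) is on chromosome 6 at 148047259 to 148182758, plus strand, and Fa2h (ENSMUSG00000033579) on chromosome 8 at 111345135 to 111393824, minus strand. Soat1 (ENSMUSG00000026600) is on chromosome 1 at 156424525 to 156474331, minus strand, and Plin2 (ENSMUSG00000028494) on chromosome 4 at 86648386 to 86670060, minus strand. Counts of 3 members are less certain than the rest. The exons of Far2 overlap those of Ergic2 by 837 bases and of Far2os2 by 81 bases on the opposite strand, and the sources used here do not give the strand setting of the counting. Scd3 shares 6.57% of its 50-base words with other genes, Scd1 and Scd2 among them, and Plin2 shares 2.57%.

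Total counts were 2809142 to 4062053 in UVB DE2, 4205055 to 4741726 in untreated DE2, 2915273 to 4212640 in UVB WT and 3852586 to 4392982 in untreated WT libraries. The untreated DE2 libraries stood apart in tissue markers, and every result below that uses them rests on that group. CPM stands here for counts divided by the library's TMM-scaled total, edgeR's measure of depth. Summed skeletal muscle markers (14 genes, none at 0 in any group) ranged over 24598 to 31778 CPM in UVB DE2, 60906 to 134050 in untreated DE2, 12661 to 57123 in UVB WT and 26930 to 34177 in untreated WT libraries. Summed hair follicle markers (15 genes, none at 0 in any group) ranged over 9278 to 15481 CPM in UVB DE2, 167 to 799 in untreated DE2, 23043 to 28089 in UVB WT and 11767 to 22137 in untreated WT libraries. Sebocyte markers other than the members (10 genes, none at 0 in any group) summed to 681 to 854, 522 to 790, 818 to 1053 and 720 to 828 CPM in the same order of groups, so their ranges overlapped between untreated DE2 and each other group except UVB WT.

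The members' levels were compared per length of transcript, as RPKM, which is CPM divided by the gene's exon length in kilobases. Elovl3 and Plin2 led in 3 of the 4 groups. In UVB DE2 skin Elovl3 averaged 38.8 ± 4.91 RPKM and Plin2 35.7 ± 4.10 RPKM (SD, n = 3), with overlapping ranges, and Soat1 followed at 5.23 ± 1.01 RPKM. In untreated DE2 skin Plin2 alone was high, at 47.9 ± 9.10 RPKM, and the next were Fa2h at 4.83 ± 1.37 and Elovl3 at 2.70 ± 1.49 RPKM, whose ranges overlapped. In UVB WT skin Elovl3 at 62.6 ± 12.3 RPKM lay above Plin2 at 30.8 ± 5.68 RPKM with no overlap, and in untreated WT skin Elovl3 at 50.8 ± 30.9 and Plin2 at 29.5 ± 4.92 RPKM overlapped. The receptor, the wax and acyltransferase enzymes and the desaturase were the low members: Mc5r, Awat2, Dgat2l6, Far2 and Scd3 averaged from 0 to 2.73 RPKM in every group, and neighbours among them mostly overlapped. Together the members summed to 276 to 305 CPM in UVB DE2, 191 to 246 in untreated DE2, 319 to 367 in UVB WT and 233 to 370 in untreated WT libraries. Of that sum Elovl3 made up 26.3% in UVB DE2, 2.42% in untreated DE2, 36.0% in UVB WT and 35.6% in untreated WT skin, and Plin2 made up 43.0%, 76.4%, 31.6% and 36.7% in the same groups.

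**Figure D1:**
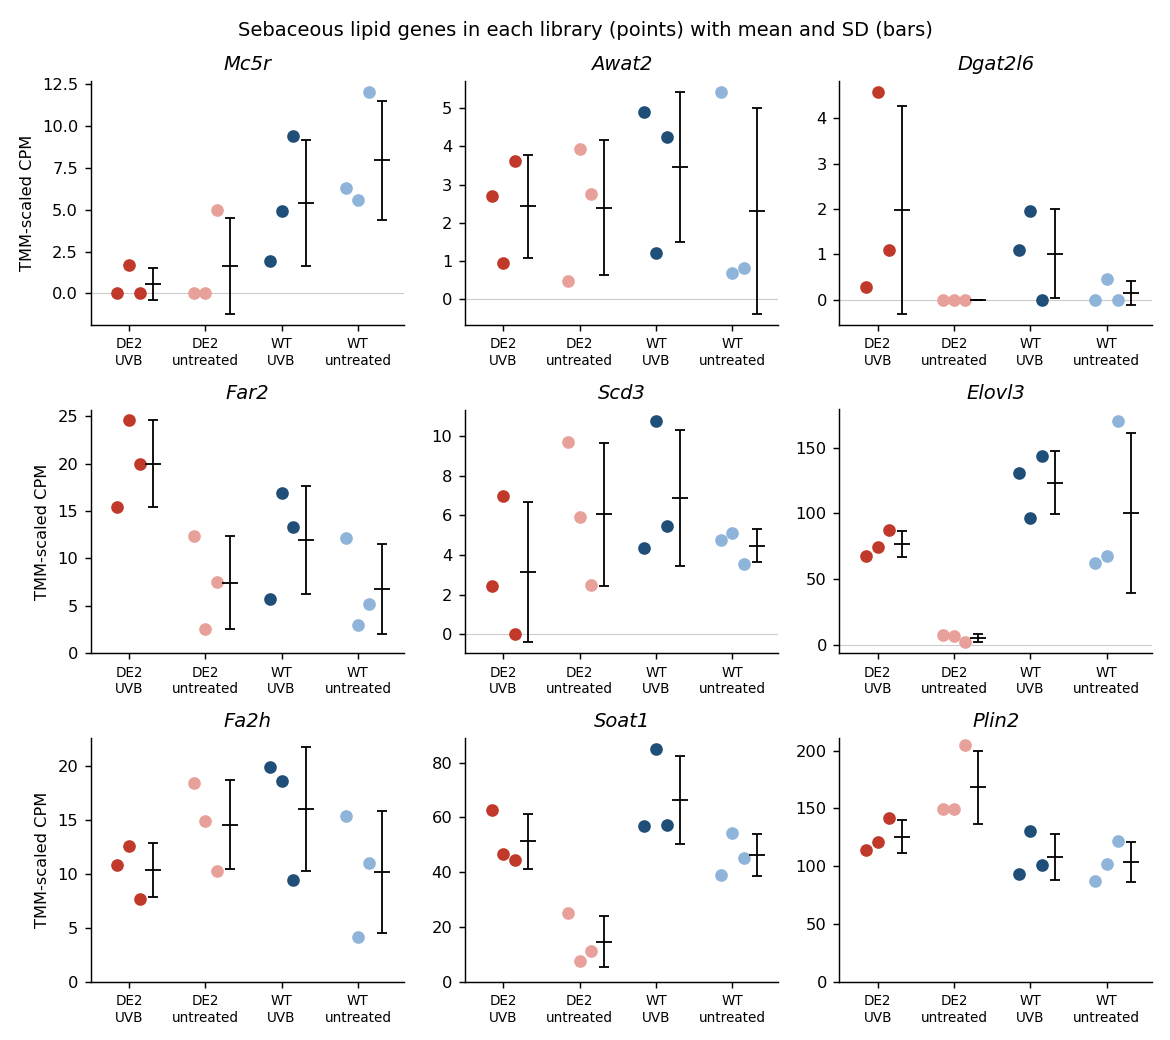
TMM-scaled CPM (y axis, linear, 1 panel per gene) of the 9 members in each library (points), by group (x axis), with the group mean and SD (bars, n = 3). Elovl3 lies between 1.94 and 7.28 CPM in the untreated DE2 libraries and between 62.6 and 171 CPM in the other 9, and Plin2 is between 86.9 and 205 CPM in all 12.

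Mc5r, the receptor at the head of the list, was low in DE2 skin. Its level was 0, 1.69 and 0 CPM in the UVB DE2 libraries and 0, 0 and 4.98 CPM in the untreated DE2 libraries. In WT it was 1.91, 4.90 and 9.39 CPM with UVB and 6.29, 5.57 and 12.04 CPM without. Every DE2 library lay below every WT library of the same site, on 7 against 58 counts with UVB and 18 against 111 counts without, and all DE2 counts came from 1 library of each group. Mc5r did not pass the test in either genotype comparison: the log2 fold change was -3.07 ± 1.42 with UVB (approximate SE, adjusted p = 0.327, edgeR quasi-likelihood test with Benjamini-Hochberg adjustment over 15126 genes) and -2.26 ± 1.29 without UVB (adjusted p = 0.232). The call without UVB turned on untreated DE2 replicate 3, the library with all 18 counts: without it the group is at 0 and the adjusted p was 0.0177. For UVB the log2 fold change of Mc5r was -1.38 ± 1.45 in DE2 (adjusted p = 0.523) and -0.56 ± 1.20 in WT (adjusted p = 1), neither a call. Leaving out that same replicate turned the DE2 value to 4.33, a fitted value against a group at 0 and no bound, and its range over the libraries left out in turn was -5.70 to 4.33.

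Of the wax and acyltransferase enzymes, Awat2 and Dgat2l6 were near the lower end of what these libraries can show, and Far2 lay above it. Far2, the source of fatty alcohols, was at 15.4, 24.6 and 20.0 CPM in UVB DE2 and 12.4, 2.54 and 7.47 CPM in untreated DE2 libraries. All UVB values lay above all untreated ones, but the log2 fold change of 1.41 ± 0.60 missed the threshold (adjusted p = 0.0964). Untreated DE2 replicate 1, the highest of its group, decided this: without it the value was 1.99 with an adjusted p of 0.0405. In WT, Far2 was at 5.73, 16.9 and 13.3 CPM with UVB and 12.1, 3.02 and 5.19 CPM without, overlapping groups with a value of 0.82 ± 0.60 (adjusted p = 1). Awat2, the wax synthase, stayed between 0.485 and 5.42 CPM in all 12 libraries, and its log2 fold change was 0.01 ± 1.03 for UVB in DE2, 0.56 ± 0.998 for UVB in WT, -0.51 ± 1.01 for DE2 with UVB and 0.04 ± 1.01 for DE2 without UVB. With standard errors near 1 on the log2 scale, differences of Awat2 of that size or smaller could not be called, and larger ones may be missed too. Its untreated WT libraries alone ran from 0.696 to 5.42 CPM.

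Dgat2l6 had 37 counts in all and was below the filter on low counts, so it was not tested in the fit. It had 1, 19 and 3 counts in the UVB DE2 libraries and 0 in each untreated DE2 library. In WT it had 4, 8 and 0 counts with UVB and 0, 2 and 0 without. Against a floor of 3 counts over the untreated group, the level in UVB DE2 skin was at least 8.16-fold higher, and 19 of the 23 counts came from replicate 2. The WT ratio of UVB to untreated skin was 7.46 (exact 95% interval 1.66 to 68.6), and that of UVB DE2 to UVB WT skin was 2.00 (0.955 to 4.41). Bounds and intervals cover counting error only, and neither the bound nor the ratios take in the spread between libraries.

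Elovl3, the fatty acid elongase, had the largest called differences among the members. It was at 68.0, 74.7 and 87.1 CPM in UVB DE2 libraries, 7.28, 6.76 and 1.94 CPM in untreated DE2 libraries, 131, 96.5 and 144 CPM in UVB WT libraries and 62.6, 67.5 and 171 CPM in untreated WT libraries. Untreated DE2 was the low group, with no library near any other. In DE2 mice Elovl3 rose with UVB by 3.83 ± 0.45 on the log2 scale, 14.2-fold (adjusted p = 3.44e-05). In untreated skin it fell by 4.22 in DE2 relative to WT, 18.6-fold lower (SE 0.46, adjusted p = 1.65e-05). In WT the UVB value was 0.30 ± 0.37 with overlapping groups (adjusted p = 1), and with UVB the DE2 libraries lay below the WT libraries without passing the test (-0.69 ± 0.38, adjusted p = 0.435). The difference between the UVB changes in DE2 and in WT was itself tested, as the interaction, and was 3.53 ± 0.58 (adjusted p = 0.00165). The change with UVB in DE2 and the difference without UVB share the untreated DE2 libraries, so they are not independent results.

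The hair follicle markers moved with Elovl3. All 15 of the listed markers were called higher with UVB in DE2 (median log2 fold change 5.15) and all 15 lower in DE2 without UVB (median -5.55). Of all genes, 14.4% were called higher with UVB in DE2 and 11.2% lower in DE2 without UVB. Elovl3 came to 0.439%, 0.805% and 0.566% of the summed hair follicle markers in UVB DE2 libraries, 0.911%, 4.05% and 0.807% in untreated DE2, 0.487%, 0.419% and 0.511% in UVB WT, and 0.532%, 0.305% and 0.887% in untreated WT. Set against that sum, untreated DE2 was no longer the low group, and untreated DE2 replicate 2 was the highest library. The sum itself was lower in untreated DE2 by more than Elovl3 was. This order therefore follows from the choice of the sum, and nothing is concluded from it. With the share of counts in these markers as a covariate, Elovl3 kept its sign and lost its call for UVB in DE2 (2.13, adjusted p = 0.770), for DE2 without UVB (-2.33, adjusted p = 0.776) and for the interaction (1.98, adjusted p = 0.858). That fit called 0 of the 15126 genes in these 3 comparisons, since the covariate sets untreated DE2 apart from every other group. The part of hair follicles and of the gland in the Elovl3 result cannot be told apart. The brown fat marker Ucp1 had 2 counts in untreated DE2 libraries and 0 elsewhere. Summed brown fat markers (5 genes) were higher in untreated DE2, where Elovl3 was low: 157 to 340 CPM in UVB DE2, 601 to 920 in untreated DE2, 127 to 389 in UVB WT and 179 to 207 in untreated WT. Of the 4 tested, 3 were called higher in DE2 without UVB, beside 11.8% of all genes. The log2 fold changes of all 4 ran from -1.60 to 2.68. Skeletal muscle markers were high in the same libraries, and the part of muscle in this sum was not tested.

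**Figure D2:**
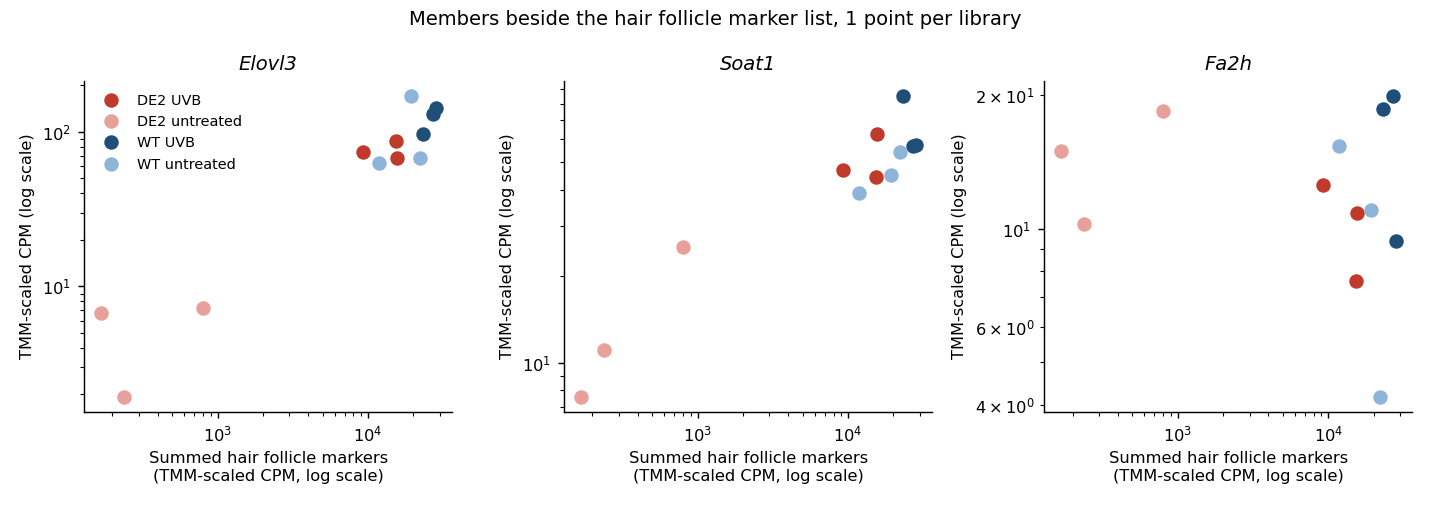
Each member shown (TMM-scaled CPM, y axis, log scale) against the summed hair follicle markers (TMM-scaled CPM, x axis, log scale), 1 point per library, coloured by group. The 3 untreated DE2 libraries lie at 167 to 799 CPM of hair follicle markers and low in Elovl3, and the other 9 lie at 9278 CPM or more.

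Scd3 and Fa2h, the other enzymes that shape sebum fatty acids, were not called in any comparison. Scd3 was at 2.44, 6.99 and 0 CPM in UVB DE2, 9.71, 5.92 and 2.49 in untreated DE2, 4.36, 10.8 and 5.45 in UVB WT and 4.77, 5.10 and 3.53 in untreated WT libraries. Fa2h was at 10.8, 12.5 and 7.62 CPM in UVB DE2, 18.4, 14.9 and 10.2 in untreated DE2, 19.9, 18.6 and 9.39 in UVB WT and 15.4, 4.18 and 11 in untreated WT libraries. The groups of both genes overlapped in all 4 comparisons. The log2 fold changes of Scd3 were -0.90 ± 0.87 for UVB in DE2 and 0.62 ± 0.85 for UVB in WT, and those of Fa2h -0.49 ± 0.48 and 0.65 ± 0.48. The UVB values of each gene thus had opposite signs in the genotypes, but the differences between them were not called (Scd3 -1.52 ± 1.22, adjusted p = 0.478, and Fa2h -1.13 ± 0.68, adjusted p = 0.313).

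Soat1, the cholesterol esterifying enzyme, was, like Elovl3, lowest in untreated DE2 skin, over a smaller range. It was at 62.6, 46.8 and 44.3 CPM in UVB DE2 libraries, 25.2, 7.61 and 11.1 CPM in untreated DE2 libraries, 57.0, 85.0 and 57.2 CPM in UVB WT libraries and 39.0, 54.3 and 45.0 CPM in untreated WT libraries. Untreated DE2 lay below all other groups without overlap, with replicate 1 the highest of its 3. Soat1 rose with UVB in DE2 by 1.80 ± 0.36, 3.47-fold (adjusted p = 0.00234). In untreated skin it fell by 1.64 in DE2 relative to WT, 3.12-fold lower (SE 0.36, adjusted p = 0.00488). In WT all UVB libraries were above all untreated ones, by 0.53 ± 0.34, which was not a call (adjusted p = 1). The UVB changes in DE2 and WT were not shown to differ (interaction 1.27 ± 0.49, adjusted p = 0.114), but this turned on untreated DE2 replicate 1: without that library the interaction was 1.92 with an adjusted p of 0.00564. With muscle markers as a covariate the calls were lost at nearly the same values (1.74, adjusted p = 0.0963, for UVB in DE2 and -1.60, adjusted p = 0.102, for DE2 without UVB), and with hair follicle markers both signs turned (-1.003 and 1.46, not called). The muscle covariate cut the calls over all genes from 4202 to 727 for UVB in DE2. For DE2 without UVB it cut them from 3477 to 545.

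Relative to the hair follicle sum, Soat1 was highest in untreated DE2 skin. It came to 0.404%, 0.504% and 0.288% of that sum in UVB DE2 libraries, 3.16%, 4.55% and 4.61% in untreated DE2, 0.213%, 0.369% and 0.204% in UVB WT and 0.332%, 0.245% and 0.234% in untreated WT. The hair follicle sum was lower in untreated DE2 by far more than Soat1 was, so this order follows from the choice of the sum. The part of hair follicle content in the Soat1 result was not tested beyond the covariate fit above.

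Plin2, the droplet coat protein, moved the other way in untreated skin. It was at 114, 120.5 and 142 CPM in UVB DE2 libraries, 149.7, 149.6 and 205 CPM in untreated DE2 libraries, 93.0, 131 and 101 CPM in UVB WT libraries and 86.9, 102 and 121 CPM in untreated WT libraries. All untreated DE2 libraries lay above all untreated WT libraries and above all UVB DE2 libraries. Plin2 rose in DE2 without UVB by 0.70 ± 0.20, 1.62-fold (adjusted p = 0.0228). The call is not firm: it was lost without untreated WT replicate 1 (0.51, adjusted p = 0.150), untreated WT replicate 2 (0.61, adjusted p = 0.109), untreated DE2 replicate 3 (0.56, adjusted p = 0.0908) or UVB DE2 replicate 1 (0.62, adjusted p = 0.0504). Scaling to library totals alone cut the value to 0.28 (adjusted p = 0.289), and the muscle covariate to 0.36 (adjusted p = 0.570). UVB in DE2 gave -0.42 ± 0.20 without a call (adjusted p = 0.139), UVB in WT 0.06 ± 0.20 (adjusted p = 1) and DE2 with UVB 0.21 ± 0.20 (adjusted p = 0.724). Skeletal muscle and fat, which also make Plin2, were high in the same libraries: adipocyte markers (10 genes, none at 0 in any group) summed to 3294 to 4176 CPM in UVB DE2, 8938 to 20800 in untreated DE2, 2931 to 8041 in UVB WT and 4475 to 7129 in untreated WT, and the part of fat in the Plin2 value was not tested.

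The members' counts can be read against all genes. For UVB in DE2, 2 of the 8 members tested were called higher, Elovl3 and Soat1, and 0 lower, where 14.4% of all genes tested were called higher and 13.4% lower. The groups did not overlap for 4 of the 8, where 41.5% of all genes had groups that did not overlap. For DE2 without UVB, 1 member was called higher, Plin2, and 2 lower, Elovl3 and Soat1, where 11.8% of all genes were higher and 11.2% lower. Here too 4 of the 8 members had groups that did not overlap, beside 39.8% of all genes. With 8 members tested, these counts are read as a description and not as a result about the members as a group. Without the filter on low counts, calls were added for Far2 (adjusted p = 0.0419) and Dgat2l6 (0.0271) with UVB in DE2, for Mc5r in DE2 with UVB (0.0422) and for Soat1 in the interaction (0.0400).

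For UVB in WT, edgeR called 0 of the 8 members in either direction, beside 0.0198% of all genes called higher and 0% lower. DESeq2 called 0 as well, and 0 of the 8 had an unadjusted p under 0.05. Only Soat1 had groups that did not overlap, 1 of 8 beside 10.1% of all genes. For DE2 with UVB, edgeR called 0 of the 8 and DESeq2 0, beside 2.35% of all genes higher and 0.608% lower, and 1 member, Mc5r, had an unadjusted p under 0.05. Elovl3 and Mc5r had groups that did not overlap, 2 of 8 beside 21.3% of all genes. In the interaction 1 of the 8 was called, Elovl3, where 5.64% of all genes were higher and 4.84% lower. The medians over the 8 were -0.21 for UVB in DE2, 0.55 for UVB in WT, -0.57 for DE2 with UVB, 0.09 for DE2 without UVB and -0.52 for the interaction, while the medians of all genes tested lay between -0.03 and 0.04.

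**Figure D3:**
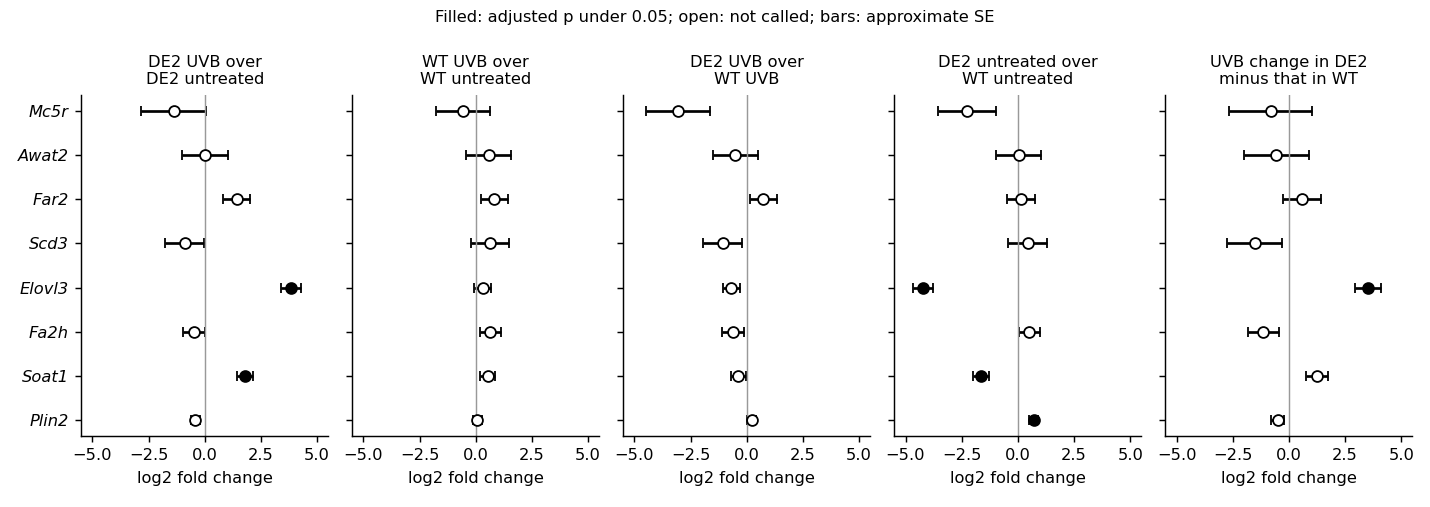
Log2 fold changes (x axis) of the 8 tested members (y axis) in each comparison, with approximate standard errors (bars). Filled points have an adjusted p under 0.05, open points do not. Filled points are Elovl3 and Soat1 for UVB in DE2, Elovl3, Soat1 and Plin2 for DE2 without UVB, and Elovl3 for the interaction.

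The members did not vary as a block. Likeness was measured as the root mean square difference between log2 CPM profiles, each centred on its own mean over the 12 libraries, so 0 means the same profile and genes with little variation come out close. The closest pair of members was Fa2h and Plin2 at 0.674, followed by Soat1 and Far2 at 1.02, and the farthest was Mc5r and Far2 at 2.43. Each tested member had closer profiles outside the list, among the 13741 genes compared. Nearest to Elovl3 were Nek2 at 0.467, Psors1c2 at 0.468 and Trpm1 at 0.504, whereas the profile of Elovl3 itself had an SD of 2.03. Near Soat1 were Brwd3 at 0.321 and Mis18a at 0.344, with an SD of 1.03 for Soat1. Plin2, with an SD of only 0.347, was nearest to Mmadhc at 0.114, Rab1b at 0.135 and Ubb at 0.140. Nearest to Fa2h was Pard6a at 0.222, to Scd3 Zfp335 at 0.505, to Far2 Cyp4f16 at 0.527, to Awat2 Tctex1d2 at 0.615 and to Mc5r Nnat at 0.977. The profiles share 12 libraries and their depth, and the values describe likeness over these libraries only.

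Around Soat1, the called genes of sterol synthesis, which makes its substrate, lay on 1 side in each comparison. Of 22 tested genes of cholesterol synthesis and esterification, 11 were called higher and 0 lower with UVB in DE2 (median 0.75), beside a median of 0.02 for all genes. Over all genes, 14.4% were called higher and 13.4% lower in that comparison. Sqle, the squalene epoxidase, rose by 1.78 ± 0.21 (adjusted p = 3.45e-05), on 210.2 ± 29.4 CPM in UVB DE2 and 61.3 ± 10.2 CPM in untreated DE2 skin (SD, n = 3). Ebp, a sterol isomerase, rose by 1.15 ± 0.20, with 116.9, 135.4 and 139.4 CPM in UVB DE2 and 53.9, 60.9 and 61.9 CPM in untreated DE2 skin. In DE2 without UVB, 7 of the 22 were called lower and 0 higher (median -0.59, or -0.60 without Soat2, which had no count in untreated WT skin). Over all genes, 11.2% were called lower and 11.8% higher without UVB. Sqle fell by 1.01 (SE 0.21) in that comparison, on 61.3 ± 10.2 CPM in untreated DE2 and 123 ± 29.8 CPM in untreated WT skin. Msmo1, a sterol demethylating oxidase, fell by 0.67 (SE 0.16), a call lost without untreated DE2 replicate 3 (adjusted p = 0.0507). With library totals in place of TMM, which moved the median of all genes by -0.40, the count of lower calls was 13. Without untreated DE2 replicate 2, or without untreated DE2 replicate 3, it was 4.

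In WT, edgeR and DESeq2 called 0 of these 22 with UVB, 1 at an unadjusted p under 0.05. There edgeR called 0.0198% of all genes higher and 0% lower. With UVB, DE2 differed from WT in 1 of them, Ebp (0.77 ± 0.19, adjusted p = 0.0433), a call lost without any 1 of the 6 UVB libraries. For that comparison 2.35% of all genes were called higher and 0.608% lower. The interaction was called for 4 of the 22, all positive, beside 5.64% of all genes called higher and 4.84% lower. The 4 included Sqle at 1.55 ± 0.29 and Msmo1 at 0.81 ± 0.23. Msmo1 lost that call without any of several single libraries, while Sqle kept it without each of the 12. The count came to 2 without any 1 of 6 libraries, namely replicate 2 of UVB DE2, replicate 2 of untreated DE2, replicates 1 and 2 of UVB WT and replicates 2 and 3 of untreated WT. The hair follicle markers were called in the direction of this list, and the muscle markers in the opposite one, both with UVB in DE2 and in DE2 without UVB. Of 8 epidermal markers, 4 were called higher and 2 lower with UVB in DE2 (-3.04 to 2.79), and 0 higher and 1 lower in DE2 without UVB (median 0.53). The shares over all genes were 14.4% and 13.4% with UVB in DE2, and 11.8% and 11.2% in DE2 without UVB. The epidermal sums were at 20164 to 25118 CPM in UVB DE2, 7140 to 12574 in untreated DE2, 5133 to 8202 in UVB WT and 4781 to 7244 in untreated WT, and the part of the epidermal markers was not tested. With the muscle covariate, the calls for UVB in DE2 came to 3 of the 22, while those over all genes came to 727, beside 4202.

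**Figure D4:**
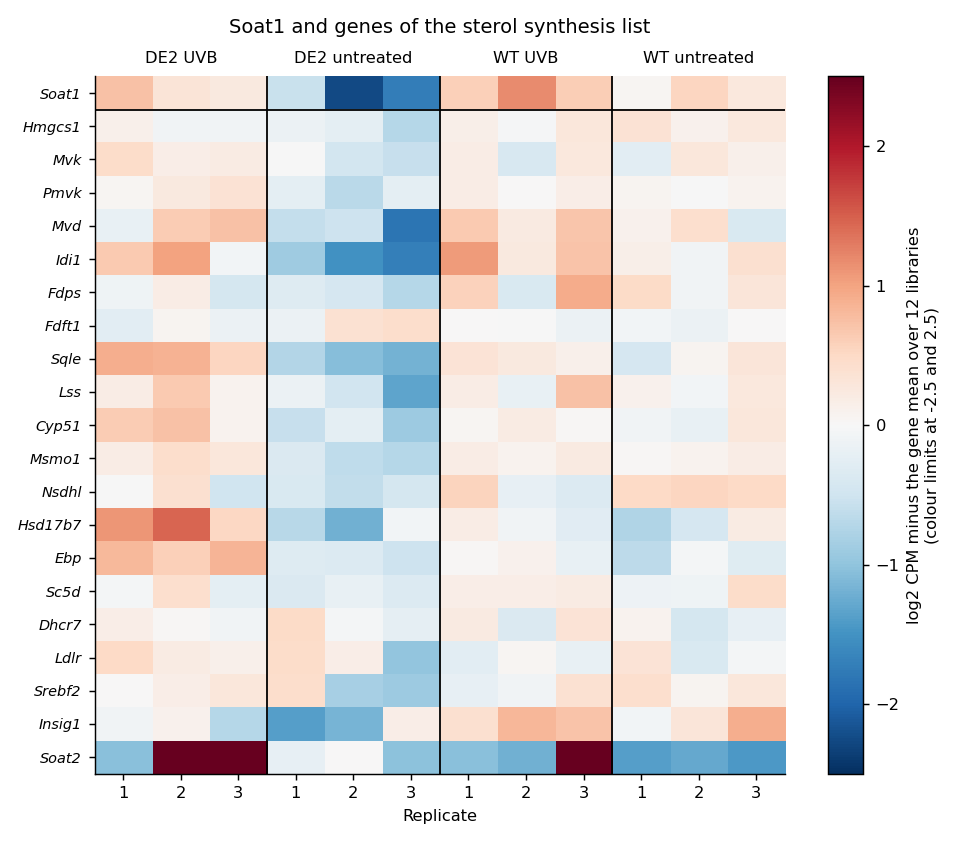
Centred log2 CPM (colour, minus each gene's mean over the 12 libraries, limits at -2.5 and 2.5) of Soat1 and genes of the sterol synthesis list (rows) in each library (columns, by group and replicate). Sqle is at its lowest in the untreated DE2 columns.

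Around Elovl3, Scd3 and Fa2h, the called genes among the general fatty acid enzymes lay on both sides with UVB in DE2. Of 18 tested genes of fatty acid synthesis, elongation and desaturation, 5 were higher and 4 lower with UVB in DE2 (median 0.09), and 2 higher and 4 lower in DE2 without UVB (median -0.19). Over all genes, 14.4% were called higher and 13.4% lower with UVB in DE2, and 11.8% and 11.2% in DE2 without UVB. With library totals the split in DE2 without UVB was 0 higher and 6 lower (median -0.60). Elovl7, another elongase, rose with UVB in DE2 by 2.46 ± 0.30, on 207 ± 27.7 CPM in UVB DE2 and 37.7 ± 6.89 CPM in untreated DE2 skin. Hacd3, a dehydratase of the elongation cycle, rose by 1.57 ± 0.24 and Scd2, a desaturase related to Scd3, by 1.46 ± 0.24, and both fell in DE2 without UVB, by 1.29 (SE 0.24) and 1.58 (SE 0.24). Acss2, which makes acetyl-CoA from acetate, fell with UVB in DE2 by 1.69 (SE 0.39). Hacd3, Scd2 and Elovl7 were the 3 of this list called in the interaction, all positive, at 1.35 ± 0.33, 1.45 ± 0.33 and 1.59 ± 0.41, and Elovl7 lost this call without any of 5 single libraries. Of all genes, 5.64% were called higher and 4.84% lower in the interaction. Without untreated DE2 replicate 1 there were 5 interaction calls, among them Acss2 at -1.88 (adjusted p = 0.0170). No gene of the list was called for UVB in WT (1 at an unadjusted p under 0.05, and 0 by DESeq2) or for DE2 with UVB (4 at an unadjusted p under 0.05, and 2 by DESeq2), and leaving out 1 library gave up to 2 calls for DE2 with UVB. Over all genes, edgeR called 0.0198% higher and 0% lower for UVB in WT, and 2.35% and 0.608% for DE2 with UVB.

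Beside Fa2h, whose hydroxylated fatty acids enter ceramides, 7 of 14 tested sphingolipid synthesis genes were called higher with UVB in DE2 and 0 lower (median 0.31). In that comparison 14.4% of all genes were called higher and 13.4% lower. Degs2, a ceramide desaturase and hydroxylase, rose by 6.06 ± 0.83, on 104 ± 13.8 CPM in UVB DE2 and 1.57 ± 1.84 CPM in untreated DE2 skin. Ugcg, the glucosylceramide synthase, rose by 1.34 ± 0.25. Degs1, the ceramide-forming desaturase, rose by 1.49 ± 0.24 and was also higher in DE2 with UVB, by 1.46 ± 0.24 (adjusted p = 0.00483), on 271 ± 57.9 CPM in UVB DE2 and 98.6 ± 28.1 CPM in UVB WT skin. In DE2 without UVB only Cers4, a ceramide synthase, was called: it fell by 1.15 (SE 0.29), and without untreated DE2 replicate 3 the call was lost (adjusted p = 0.0531), while 2 genes of the list were called without untreated DE2 replicate 1. Of all genes, 11.2% were called lower and 11.8% higher in DE2 without UVB. In WT, edgeR and DESeq2 called 0 of the 14 with UVB, 1 at an unadjusted p under 0.05. There edgeR called 0.0198% of all genes higher and 0% lower.

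Beside Plin2, 6 of 12 tested lipid droplet genes were called lower with UVB in DE2 and 2 higher (median -0.84), and 3 were called higher and 0 lower in DE2 without UVB (median 0.72). Over all genes, 13.4% were called lower and 14.4% higher with UVB in DE2, and 11.8% higher and 11.2% lower in DE2 without UVB. Pnpla2, the main triglyceride lipase, fell with UVB in DE2 by 1.77 (SE 0.26), on 129.8 ± 18.4 CPM in UVB DE2 and 444 ± 94.5 CPM in untreated DE2 skin, and rose in DE2 without UVB by 1.85 ± 0.26. Plin4, a droplet coat protein, fell with UVB in DE2 by 2.00 (SE 0.43). G0s2, an inhibitor of that lipase, was higher in DE2 with UVB by 2.48 ± 0.37 (adjusted p = 0.00213), on 90.3 ± 7.20 CPM in UVB DE2 and 16.1 ± 2.11 CPM in UVB WT skin. It rose with UVB in DE2 by 1.11, less than its interaction of 1.74, so its fitted UVB value in WT was negative. Neutrophil markers were also high in UVB DE2 skin. Of 7 tested, 5 were called higher in DE2 with UVB, beside 2.35% of all genes. For UVB in DE2 it was 7 of 7 (median 6.48), beside 14.4% of all genes. Their sums were at 4200 to 4531 CPM in UVB DE2, 14.4 to 181 in untreated DE2, 187 to 403 in UVB WT and 50.9 to 62.7 in untreated WT libraries, with Mpo at 0 in every library. The part of neutrophils in the G0s2 value and the other changes of UVB DE2 skin was not tested. The list shares Plin1 and Cidec with the adipocyte markers, which were high in untreated DE2 libraries as given above. Without UVB DE2 replicate 1, 2 of the 12 were called for UVB in DE2, without UVB DE2 replicate 2 or untreated DE2 replicate 3 it was 4, and with library totals 3 were called higher and 4 lower. For DE2 without UVB, library totals left 1 call, as did leaving out untreated WT replicate 2.

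Of 9 other genes of wax and triglyceride synthesis, 0 were called higher and 4 lower with UVB in DE2, and 3 higher and 1 lower in DE2 without UVB (medians -0.73 and 0.68). The shares over all genes were 14.4% higher and 13.4% lower with UVB in DE2, and 11.8% and 11.2% in DE2 without UVB. Acsl1, an acyl-CoA synthetase of fat and muscle, fell with UVB in DE2 by 1.29 (SE 0.28), on 170.3 ± 11.8 CPM in UVB DE2 and 417 ± 102 CPM in untreated DE2 skin, and rose in DE2 without UVB by 1.54 ± 0.29. With library totals the split for UVB in DE2 was 2 higher and 2 lower, without untreated DE2 replicate 2 or 3 there were 2 calls, and without UVB DE2 replicate 3 there was 1. For DE2 without UVB the 4 calls came to 2 with library totals and without untreated DE2 replicate 2 or untreated WT replicate 1 or 2. Dgat1, a triglyceride synthase, was higher in DE2 with UVB by 1.24 ± 0.29 (adjusted p = 0.0310), a call lost without any 1 of the 6 UVB libraries.

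Of 10 tested markers of the sebocyte itself, 1 was called higher and 2 lower with UVB in DE2 (median -0.09), beside 14.4% and 13.4% of all genes. In DE2 without UVB 0 were higher and 1 was lower (median 0.18), beside 11.8% and 11.2% of all genes. None were called for UVB in WT, DE2 with UVB or the interaction, with 2, 2 and 1 at an unadjusted p under 0.05 and 0 in each by DESeq2. Over all genes, edgeR called 0.0198% higher and 0% lower for UVB in WT, and 2.35% and 0.608% for DE2 with UVB. For the interaction the shares were 5.64% and 4.84%. Prdm1, a transcription factor of sebocytes and of other skin and immune cells, rose with UVB in DE2 by 1.34 ± 0.27 and fell in DE2 without UVB by 1.15 (SE 0.26). Lgr6, a stem cell receptor of the upper hair follicle, fell with UVB in DE2 by 2.07 (SE 0.39), on 11.7 ± 2.86 CPM in UVB DE2 and 49.7 ± 26.1 CPM in untreated DE2 skin. With library totals the UVB calls in DE2 were 2 higher and 1 lower, and without untreated DE2 replicate 3 there were 2 calls for DE2 without UVB. Krt79, a keratin of the sebaceous duct, was at 215 ± 43.1 CPM in UVB DE2, 165 ± 36.7 in untreated DE2, 299.9 ± 142 in UVB WT and 201 ± 10.7 in untreated WT skin, and was not called.

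Beside Mc5r, the melanocortin system gave 2 tested genes, Mc1r and Mrap, and in the fit described only Mc1r, the receptor of pigment cells, was called. It had 57 counts in UVB DE2 libraries, 0 in untreated DE2, 97 in UVB WT and 130 in untreated WT. Against the floor of 3 counts over untreated DE2, Mc1r was at least 20.2-fold higher with UVB in DE2, and in untreated skin DE2 was at least 35.6-fold lower than WT. Mrap, a helper protein of melanocortin receptors, was not called in any comparison of that fit. For UVB in DE2 it missed the threshold at -1.89 (adjusted p = 0.0592). DESeq2 called it (adjusted p = 0.0313), as did edgeR with no filter (0.0219). Without untreated DE2 replicate 1 or replicate 2 the edgeR adjusted p was 0.0445 or 0.0379. Mc3r, Pomc, Pcsk1, Pcsk2 and Mrap2 were below the filter.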

How the data were processed

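Each library came with raw counts of reads per Ensembl gene, deposited by the authors without normalization. HTSeq 2.0.2, SAMtools 1.16, Picard 3.1.0 and Trimmomatic 0.39 are named per the submitters' processing notes, with the build GRCm38. Aligner, annotation release, strand setting and duplicate handling: not given in the sources used here. Symbols, positions and exon lengths came from a GENCODE annotation of that build, and promoters from RefSeq.

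The edgeR 4.0.16 package in R 4.3.3 was used throughout. Its filter on low counts left 15126 genes and 8 of the 9 members. TMM factors were 0.762 to 0.980 in untreated DE2, 0.981 to 1.02 in UVB DE2, 0.969 to 1.13 in UVB WT and 1.10 to 1.16 in untreated WT. A robust quasi-likelihood model gave each group its own mean, with all 12 libraries in the fit, 8 residual degrees of freedom and a biological coefficient of variation of 35.8%. Benjamini-Hochberg adjustment ran over every gene tested, and calls needed an adjusted p under 0.05. Standard errors are approximate, worked back from the test statistic. Log2 CPM used a prior count of 1. The model was tested on simulated data. Libraries could not be assigned to animals, and pairs of them may come from 1 mouse, so the p-values reflect spread among libraries. Replicate numbers follow accession order and only name libraries. Of the 66 pairs of libraries, 0 were identical.

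The members and the 15 other lists were chosen with earlier results of these data known. Named are all members, up to 4 genes with the smallest p per pathway list and comparison, and the 3 genes with the profile most like each member's. Some genes within this rule are not reported here. Krt79 falls within this rule for UVB in WT and for DE2 with UVB, and was chosen after its values were seen. Alternatives were RLE scaling, library totals, no filter, a stricter filter (1 CPM in 3 libraries and 100 counts in all), DESeq2 1.42.0, only the libraries compared, muscle or hair follicle markers as a covariate, totals without those markers, each library left out in turn, and 2 libraries left out together.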

Additional observations from a re-analysis of the deposited data

Results flagged for a closer look

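These genes were singled out because the change with UVB in DE2 differed from the change with UVB in WT by edgeR's test of the interaction (adjusted p 0.00165 to 0.0405). All of them use the untreated DE2 libraries, whose hair follicle and muscle markers differ from those of every other group, and the part of that difference was not tested beyond the covariate fits. Among the members this was Elovl3, with a difference of 3.53 on the log2 scale: UVB gave 3.83 in DE2 and 0.30 in WT.

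In the sterol list the difference was 1.55 for Sqle and 0.81 for Msmo1. Among fatty acid genes it was 1.45 for Scd2, 1.35 for Hacd3 and 1.59 for Elovl7. Degs1 of the sphingolipid list had 1.33. In the lipid droplet list the difference was -1.79 for Pnpla2, -1.03 for Plin3 and 1.74 for G0s2. Mc1r had a fitted difference of 7.44, which depends on the prior count because untreated DE2 skin had 0 counts of it, and is no bound. Leaving out single libraries ended the call for Msmo1, Elovl7, Degs1, Plin3 and G0s2, and for none of Elovl3, Sqle, Scd2, Hacd3, Pnpla2 and Mc1r.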

How the results depend on the processing

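Over all alternatives, 811 of 869 recomputed member fold changes kept their sign and their side of the threshold, 13 lost a call, 8 gained one and 37 changed sign. No paired analysis was possible because the labels do not say which libraries came from 1 mouse and replicate numbers were given in accession order. Library totals moved the median of all genes by 0.24 for UVB in DE2, -0.40 for DE2 without UVB and 0.34 for the interaction. At 2809142 to 4741726 counts per library, members of a few CPM (Mc5r, Awat2, Dgat2l6, Scd3) rest on 37 to 247 counts over the 12 libraries.

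For UVB in DE2 the count of members called was 4 with no filter, 1 with the muscle covariate and 0 with the hair follicle covariate. Genes of the pathway lists called were 43 in the fit described and 7 and 0 with those covariates. Over all 15126 genes the calls were 4202, 727 and 0, so the loss was not particular to these lists. For UVB in WT no filter gave 1 list gene. For DE2 with UVB no filter gave 1 member and 8 list genes, DESeq2 and the compared libraries alone gave 9 list genes each, the muscle covariate 8, leaving out both UVB WT replicate 2 and untreated DE2 replicate 1 gave 11, and leaving out 1 library in turn 2 to 8, beside 4. For DE2 without UVB the members called were 1 with the muscle covariate and 0 with the hair follicle covariate, and the list genes 4 and 0, beside 23. Over all genes the calls there were 545 and 0, beside 3477. For the interaction 2 members were called with no filter and with both libraries left out, 0 with the hair follicle covariate and 1 to 2 with 1 library left out. The list genes called there were 20 with no filter, 2 with the muscle covariate, 0 with the hair follicle covariate and 7 to 17 with 1 library left out, beside 12. Over all genes, 331 were called in the interaction with the muscle covariate and 0 with the hair follicle covariate, beside 1585.

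Changes of sign were as follows. With the hair follicle covariate Soat1 was -1.003 for UVB in DE2, 1.46 for DE2 without UVB, 0.16 for DE2 with UVB and -1.30 for the interaction. The same fit gave Mc5r 7.15 for UVB in DE2, 0.18 for UVB in WT and 6.97 for the interaction, Awat2 -6.74 for DE2 without UVB and 5.13 for the interaction, and Far2 -0.38 for the interaction. For UVB in DE2, Awat2 was -0.28 with the muscle covariate, -0.00516 with totals without the markers and -0.48 with both libraries left out. For UVB in WT, Plin2 was -0.0385 with library totals and -0.10 with both libraries left out. For DE2 without UVB, library totals gave Awat2 -0.46 and Far2 -0.22, and leaving out both libraries gave Far2 -0.44 and Scd3 -0.0847. Leaving out 1 library in turn gave Mc5r -5.70 to 4.33 for UVB in DE2 and -5.13 to 4.88 for the interaction, Awat2 -0.48 to 0.55 for UVB in DE2 and -0.48 to 1.52 for DE2 without UVB, Far2 -0.43 to 0.80 for DE2 without UVB and -0.0616 to 1.17 for the interaction, Plin2 -0.0983 to 0.17 for UVB in WT and Scd3 -0.0847 to 0.84 for DE2 without UVB. Apart from Soat1, none of these was a call. Where the cause is not the construction of the alternative, it was not tested.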
